A study of Mus musculus with 12 samples.

Results

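The 32 genes described here mark the deeper bowel wall: 15 genes of smooth muscle, 14 of enteric neurons and 3 of enteric glia, chosen by symbol out of 19935 genes measured. Each of the 32 was read by a single probe set named by that symbol alone, and all were measured on all 12 arrays. The arrays carried RNA labelled as colon epithelial cells from male mice of 8 to 10 weeks, 3 arrays for each of 4 groups. The groups were Villin-Claudin-2 transgenic mice (TG) on 4% dextran sulfate sodium (DSS), wild-type littermates (WT) on 4% DSS, TG mice on water and WT mice on water, each for 10 days. DSS is a polymer that injures the colon lining when drunk. Villin is a protein of the epithelial brush border, and claudin-2 forms channels for cations and water in tight junctions, so the transgene is named for an epithelial driver and not for muscle or nerve. Whether the 3 arrays of a group stand for 3 animals is not in the labels, and p-values then cover only the spread among the arrays, part of which may be technical.

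Smooth muscle of the colon lies in the thin muscularis mucosae beneath the crypts, in the thick muscle coat outside the submucosa, and around blood vessels. It contracts when calcium activates myosin on filaments of smooth muscle actin, and its genes are switched on together by serum response factor (SRF) and its partner myocardin. Enteric neurons and their glia sit in ganglia between the muscle layers and in the submucosa, and send fibres into the mucosa. A preparation of pure epithelium would hold little of either, so the genes may report on wall tissue carried along with the epithelium, or on mucosal muscle and nerve. Several are also made by other cells, as given below, and the source of their RNA was not tested.

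Values are on a log2 scale, and 0 is a gene's own middle value across the 12 arrays. They compare arrays and hold no absolute level, so whether muscle or nerve RNA was abundant on any array, and whether epithelial genes were high as the label says, cannot be read from them. In such bulk RNA, fewer cells of a type and less RNA per cell cannot be told apart. The WT DSS arrays stood apart from one another: in replicates 1 to 3, 677, 3795 and 1035 of 28815 probe sets were over 1 log2 unit away from 0, against 22 to 285 on the other 9 arrays. No 2 arrays held identical values.

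No member passed in any comparison (limma, Benjamini-Hochberg adjusted p under 0.05 over 19935 genes). What the members showed was a difference between arrays, and a difference between muscle and nerve. On WT DSS replicate 1 the smooth muscle genes had a median of -0.96 while the neuron and glia genes had a median of 0.14. On WT DSS replicate 2 both were high, at 0.69 and 1.09. The medians were lower on replicate 3, at 0.13 and 0.49, and that of muscle lay below WT water replicates 1 and 3, at 0.23 and 0.25. On water the median difference of group means, TG minus WT, was below 0 in both classes.

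**Figure D1:**
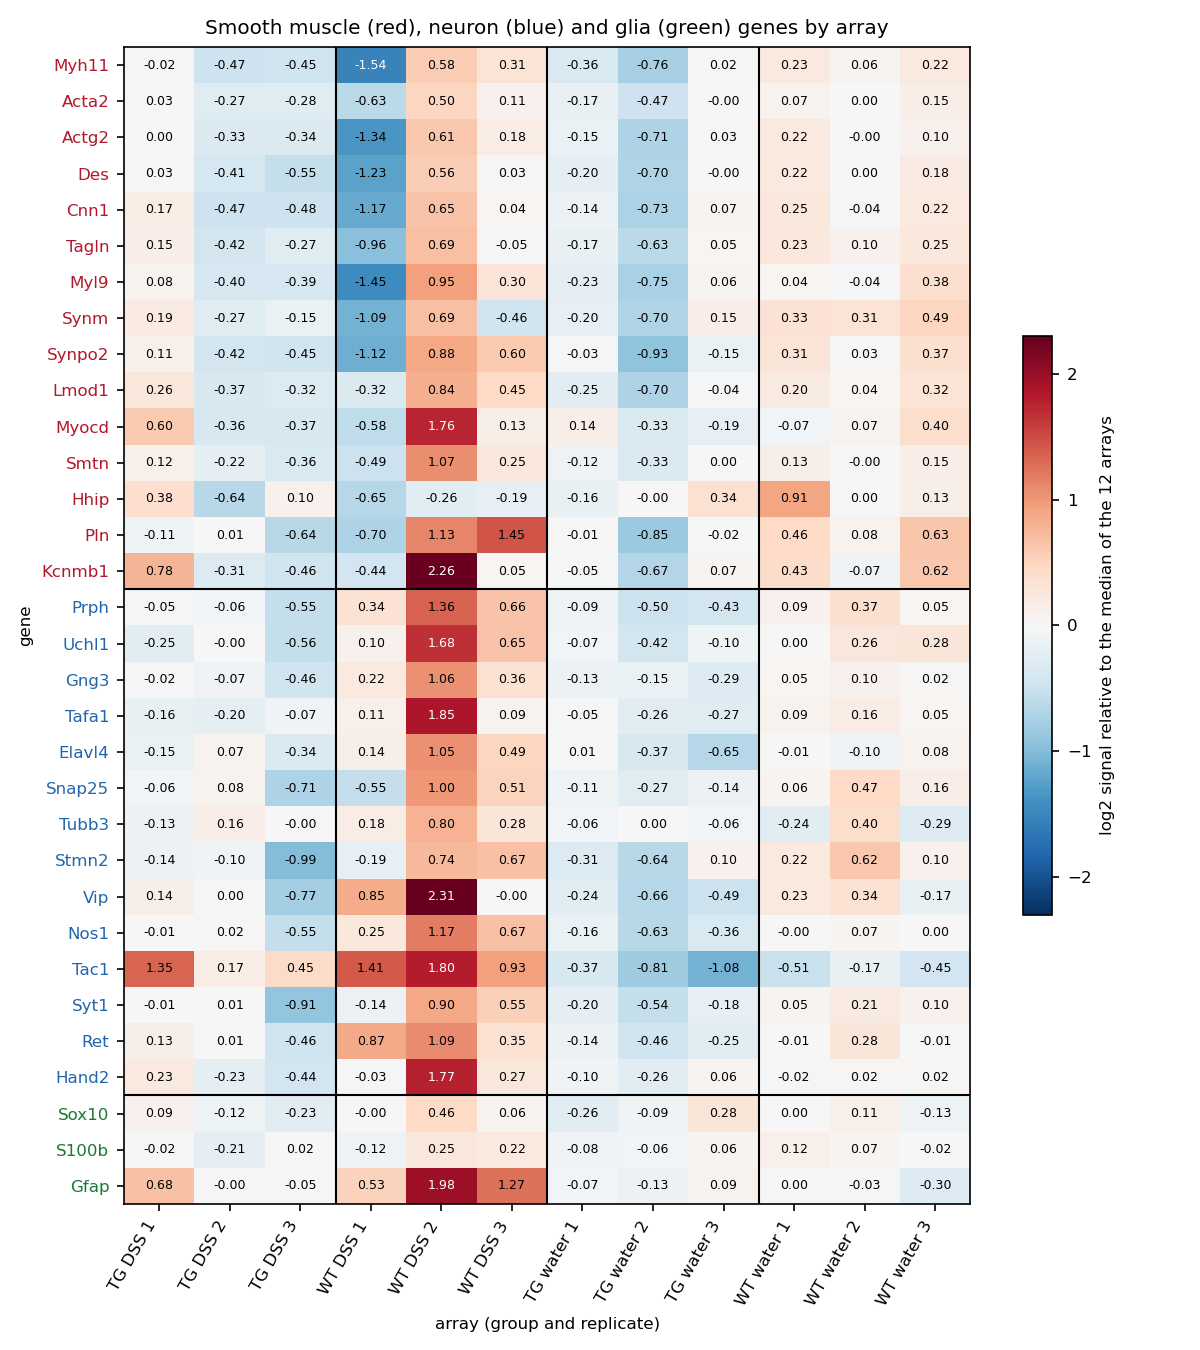
Log2 signal of each of the 32 genes (rows, coloured by class) on each of the 12 arrays (columns, by group and replicate), relative to the gene's median over the 12 arrays. The column of WT DSS replicate 1 is below 0 for all 15 smooth muscle genes, and the column of WT DSS replicate 2 is above 0 for all 17 neuron and glia genes.

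Acta2 encodes alpha smooth muscle actin and Myl9 the regulatory light chain of smooth muscle myosin. Their promoters are shown because they carry the CArG box, the SRF site of smooth muscle genes, and because both genes varied with the other muscle genes from array to array. The sequences come from RefSeq promoters of GRCm38.p6, run 5′ to 3′ on the gene's strand, and have CArG boxes in capitals. Acta2 is on chromosome 19 and its window, on the minus strand, is chr19:34255374-34255473, from 100 bases before the table's gene start to 1 base before it. The Myl9 window, on the plus strand, is chr2:156775284-156775383, from 180 to 81 bases before the start.
Acta2: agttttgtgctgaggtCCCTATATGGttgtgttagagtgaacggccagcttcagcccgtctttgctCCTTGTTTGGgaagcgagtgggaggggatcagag
Myl9: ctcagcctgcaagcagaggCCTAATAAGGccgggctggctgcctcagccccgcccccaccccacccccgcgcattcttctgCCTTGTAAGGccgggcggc

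The first Myl9 box has the full A and T core, and the other 3 boxes shown have 1 core base that is C or G. A promoter entry was found for 24 members. Counting boxes with at most 1 such core base on either strand in the 250 bases before a gene start, 3 of 11 smooth muscle members held one (Acta2, Myl9 and Synm), 1 of 11 neuron members (Elavl4, from 2 of its listed starts) and 0 of 2 glia members. The share over all 27025 genes of the table was 9.78%. With the full core alone, Myl9 and Elavl4 held one, against 1.62% of all genes. A match is a description of letters and not a site shown to be bound.

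The contractile apparatus varied as a block. Myh11, the smooth muscle myosin heavy chain, read -0.02, -0.47 and -0.45 in TG DSS replicates 1 to 3 and -1.54, 0.58 and 0.31 in WT DSS replicates 1 to 3. On water it read -0.36, -0.76 and 0.02 in TG and 0.23, 0.06 and 0.22 in WT. WT DSS held both the lowest and the highest reading of Myh11, so that group overlapped every other. Actg2, the gamma actin that dominates in gut muscle, read -1.34, 0.61 and 0.18 in WT DSS, against 0.22, 0.00 and 0.10 in WT water. Acta2 spanned less, with -0.63, 0.50 and 0.11 in WT DSS and 0.07, 0.00 and 0.15 in WT water. Acta2 is also made by myofibroblasts and vessel muscle.

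Other structural genes followed the same arrays. Des, the muscle intermediate filament desmin, read -1.23, 0.56 and 0.03 in WT DSS, and Cnn1, the actin-binding calponin, read -1.17, 0.65 and 0.04. Tagln, another actin-binding protein of smooth muscle, read -0.96, 0.69 and -0.05, and Myl9 read -1.45, 0.95 and 0.30. Replicate 1 was low and replicate 2 high in each of these genes. Synm, the filament protein synemin, and Synpo2, an actin-bundling protein of muscle, read -1.09 and -1.12 on WT DSS replicate 1 and 0.69 and 0.88 on replicate 2. On replicate 3 they parted, Synm at -0.46 and Synpo2 at 0.60.

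Readings nearer 0 on WT DSS replicate 1 were those of Lmod1, a leiomodin that nucleates actin filaments, at -0.32, and of Smtn, the cytoskeletal protein smoothelin, at -0.49. Myocd, which encodes myocardin, read -0.58 there and 1.76 on replicate 2. Kcnmb1, the beta subunit that tunes the large potassium channel of smooth muscle, read -0.44 and 2.26 on the same arrays. Kcnmb1 and Myocd thus had the highest muscle readings on WT DSS replicate 2. On that array the 9 genes of pericytes and vessel smooth muscle had a median of 2.51 and the 8 endothelial genes one of 2.99, and the part of vessel muscle in these readings was not tested.

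Pln and Hhip differed from the other muscle genes on single arrays. Pln, phospholamban, which restrains the calcium pump of the sarcoplasmic reticulum, read -0.70, 1.13 and 1.45 in WT DSS replicates 1 to 3, and was the muscle gene that read highest on replicate 3. Hhip, which binds hedgehog ligands on responding cells, read 0.38, -0.64 and 0.10 in TG DSS and -0.65, -0.26 and -0.19 in WT DSS. In WT water it read 0.91, 0.00 and 0.13. Hhip was below 0 on all 3 WT DSS arrays and was the muscle gene whose WT DSS arrays did not overlap WT water.

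Across the class, 12 of 15 smooth muscle genes had their lowest of 12 readings on WT DSS replicate 1, which was the lowest array for 9.19% of all genes. The other 3 were lowest on TG water replicate 2, the lowest array for 5.47% of all genes. Replicate 2 of WT DSS was the highest array for 13 of 15 muscle genes and for 17 of 17 neuron and glia genes, against 22% of all genes. Between those replicates, 2 minus 1, muscle genes differed by a median of 1.82 and neuron and glia genes by a median of 0.93, where the median of all genes was -0.03.

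**Figure D2:**
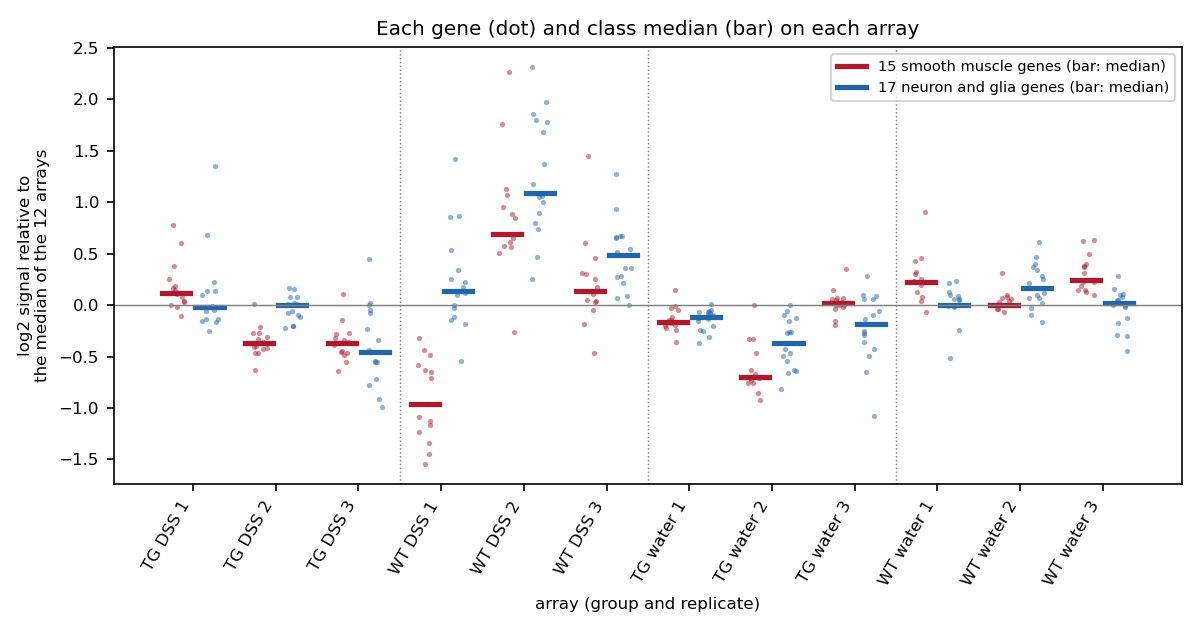
Log2 signal of each smooth muscle gene (red dots) and each neuron or glia gene (blue dots) on each array, relative to the gene's median over the 12 arrays, with the class median as a bar. The bars are farthest apart on WT DSS replicate 1, at -0.96 for muscle and 0.14 for neurons and glia, and are highest on WT DSS replicate 2, at 0.69 and 1.09.

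Among neuronal genes the structural and general markers came first. Uchl1, a ubiquitin hydrolase abundant in neurons, read -0.25, 0.00 and -0.56 in TG DSS and 0.10, 1.68 and 0.65 in WT DSS. Prph, the intermediate filament peripherin, read -0.05, -0.06 and -0.55 in TG DSS and 0.34, 1.36 and 0.66 in WT DSS. WT DSS arrays lay above all 3 TG DSS arrays for both genes. Tubb3, a neuronal tubulin, read 0.18, 0.80 and 0.28 in WT DSS, and Stmn2, a tubulin-binding protein of growing neurites, read -0.19, 0.74 and 0.67. Elavl4, a neuronal RNA-binding protein, read 0.14, 1.05 and 0.49 in WT DSS. Stmn2 was the lowest of these genes on TG DSS replicate 3, at -0.99.

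Among synaptic and signalling genes WT DSS replicate 2 was again the highest array. Snap25 and Syt1 encode a SNARE protein and a calcium sensor of vesicle release. They read -0.55 and -0.14 on WT DSS replicate 1, 1.00 and 0.90 on replicate 2, and 0.51 and 0.55 on replicate 3. Snap25 was the neuronal gene with the lowest reading on WT DSS replicate 1. Gng3, a G protein gamma subunit of neurons, read 0.22, 1.06 and 0.36. Tafa1, a secreted neuronal protein, read 0.11, 1.85 and 0.09, so a single array carried its WT DSS mean.

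The transmitter genes split by gene. Nos1, the neuronal nitric oxide synthase of relaxing motor neurons, read 0.25, 1.17 and 0.67 in WT DSS and 0.00, 0.07 and 0.00 in WT water. Vip, the vasoactive intestinal peptide of relaxing and secretomotor neurons, read 0.85, 2.31 and 0.00 in WT DSS and 0.23, 0.34 and -0.17 in WT water. The WT DSS arrays lay above WT water for Nos1 and overlapped it for Vip. Vip had the highest reading of any member on any array, 2.31.

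Tac1 was the neuronal gene whose DSS arrays did not overlap the water arrays in either genotype. Tac1 encodes the precursor of substance P and neurokinin A, peptides of excitatory motor and sensory neurons. It read 1.35, 0.17 and 0.45 in TG DSS and 1.41, 1.80 and 0.93 in WT DSS. On water it read -0.37, -0.81 and -1.08 in TG and -0.51, -0.17 and -0.45 in WT. All 6 DSS arrays lay above all 6 water arrays.

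Ret, the receptor for glial-derived neurotrophic factor on enteric neurons and their precursors, read 0.13, 0.01 and -0.46 in TG DSS and 0.87, 1.09 and 0.35 in WT DSS. Hand2, a transcription factor needed for enteric neurons, read -0.03, 1.77 and 0.27 in WT DSS. Hand2 tracked replicate 2, while Ret was also high on replicate 1.

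The glial genes differed from each other. Gfap, the glial filament protein that rises in reactive glia, read 0.68, 0.00 and -0.05 in TG DSS and 0.53, 1.98 and 1.27 in WT DSS. In WT water it read 0.00, -0.03 and -0.30. Gfap was higher on every WT DSS array than on any WT water array. Sox10, the glial transcription factor, read 0.00, 0.46 and 0.06 in WT DSS, and S100b, a calcium-binding protein of glia, read -0.12, 0.25 and 0.22. Neither spanned as much as Gfap.

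The first comparison asked how these genes responded to DSS in TG mice. Apart from Tac1, the members differed little: smooth muscle genes had a median difference of 0.05, with 12 of 15 above 0, and neuron and glia genes one of 0.05, with 11 of 17 above 0. Over all genes 46.2% were above 0 and the median was -0.01. Tac1 averaged 0.65 ± 0.62 in TG DSS and -0.75 ± 0.36 in TG water (SD, n = 3 arrays each). The difference was 1.41 ± 0.32 (SE), 2.65-fold, and did not pass (limma adjusted p = 1). It was the single member whose groups did not overlap upwards, where 6.76% of all genes did so, and 0 members did so downwards. The share without overlap downwards was 6.64% of all genes. No gene passed in this comparison (0%), and 475 genes (2.38%) had an unadjusted p under 0.05, of which 1 was a member, Tac1. The other 31 differences lay between -0.13 and 0.25.

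TG DSS replicate 1 read differently from replicates 2 and 3 for muscle. Its smooth muscle median was 0.12, against -0.37 on both others, so the small mean difference joined arrays on either side of 0. On replicate 1 Kcnmb1 read 0.78 and Myocd 0.60, the fibroblast genes had a median of 0.89 and the pericyte and vessel muscle genes one of 0.44. Leukocyte genes had a median of 0.96 on that array, endothelial genes one of 0.41 and epithelial genes one of -0.17. On TG DSS replicate 3 the neuron and glia genes were low, with a median of -0.46 and 8 of 17 genes at their lowest of the 12 arrays. It was the lowest array for 5.35% of all genes. Their median on replicates 1 and 2 was -0.02 and 0.00.

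In the comparison of DSS with water in WT mice the median lay above 0 for nerve and below 0 for muscle. The direction for muscle rested on WT DSS replicate 1, as given below. Smooth muscle genes had a median difference of -0.19, with 10 of 15 below 0, where 59.4% of all genes were. Neuron and glia genes had one of 0.58, with 17 of 17 above 0, where 40.6% of all genes were above 0 and their median was -0.04. No member passed, and 0.171% of all genes did, while 9 members and 15.2% of all genes had an unadjusted p under 0.05. Higher without overlap were 6 members, namely Gng3, Elavl4, Nos1, Tac1, Ret and Gfap, where 5.45% of all genes were, and lower without overlap was Hhip, where 10.7% were.

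Tac1 averaged 1.38 ± 0.43 in WT DSS and -0.38 ± 0.18 in WT water (SD, n = 3 arrays each). The difference was 1.76 ± 0.32 (SE), 3.38-fold, with a limma adjusted p of 0.0618, which missed the threshold. It passed without WT DSS replicate 1 or 3 or TG DSS replicate 1 (limma adjusted p = 0.0309, 0.0242 and 0.0333). In those fits 919, 575 and 83 genes passed in all. Over the alternatives fitted the limma adjusted p of Tac1 lay between 0.0133 and 0.367. Gfap averaged 1.26 ± 0.72 in WT DSS and -0.11 ± 0.17 in WT water, a difference of 1.37 ± 0.32 (2.58-fold; limma adjusted p = 0.102). Without WT DSS replicate 1 the difference was 1.73, with a limma adjusted p of 0.00646.

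Ret differed by 0.68 ± 0.21 and Nos1 by 0.68 ± 0.23 in WT, DSS minus water (limma adjusted p = 0.175 and 0.213). Without WT DSS replicate 3 Ret passed, and without replicate 1 Nos1 did (limma adjusted p = 0.0417 and 0.0459). In those fits 575 and 919 genes passed in all. Ret and Nos1 each passed in 1 of the 21 alternatives fitted at the 0.05 threshold. Vip differed by 0.92 ± 0.48 and Prph by 0.62 ± 0.25 (limma adjusted p = 0.392 and 0.28). The smallest neuronal differences were those of Snap25 at 0.10 and Stmn2 at 0.10. Among muscle genes Hhip stood at -0.71 ± 0.30 and Synm at -0.67 ± 0.38 (limma adjusted p = 0.297 and 0.434), while Myocd stood at 0.30 and Kcnmb1 at 0.30.

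The muscle median hung on which WT DSS array was counted. Without replicate 1 it was 0.29, without replicate 2 it was -0.69 and without replicate 3 it was -0.36. The neuron and glia median stayed above 0 in the same fits, at 0.77, 0.23 and 0.68. The medians of the array values, muscle minus neurons and glia, were -1.10, -0.40 and -0.35 in WT DSS replicates 1 to 3. In WT water the same difference was 0.22, -0.16 and 0.23, so the 3 WT DSS arrays lay below the 3 WT water arrays. It was 0.14, -0.36 and 0.09 in TG DSS and -0.05, -0.33 and 0.20 in TG water, where the groups overlapped.

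**Figure D3:**
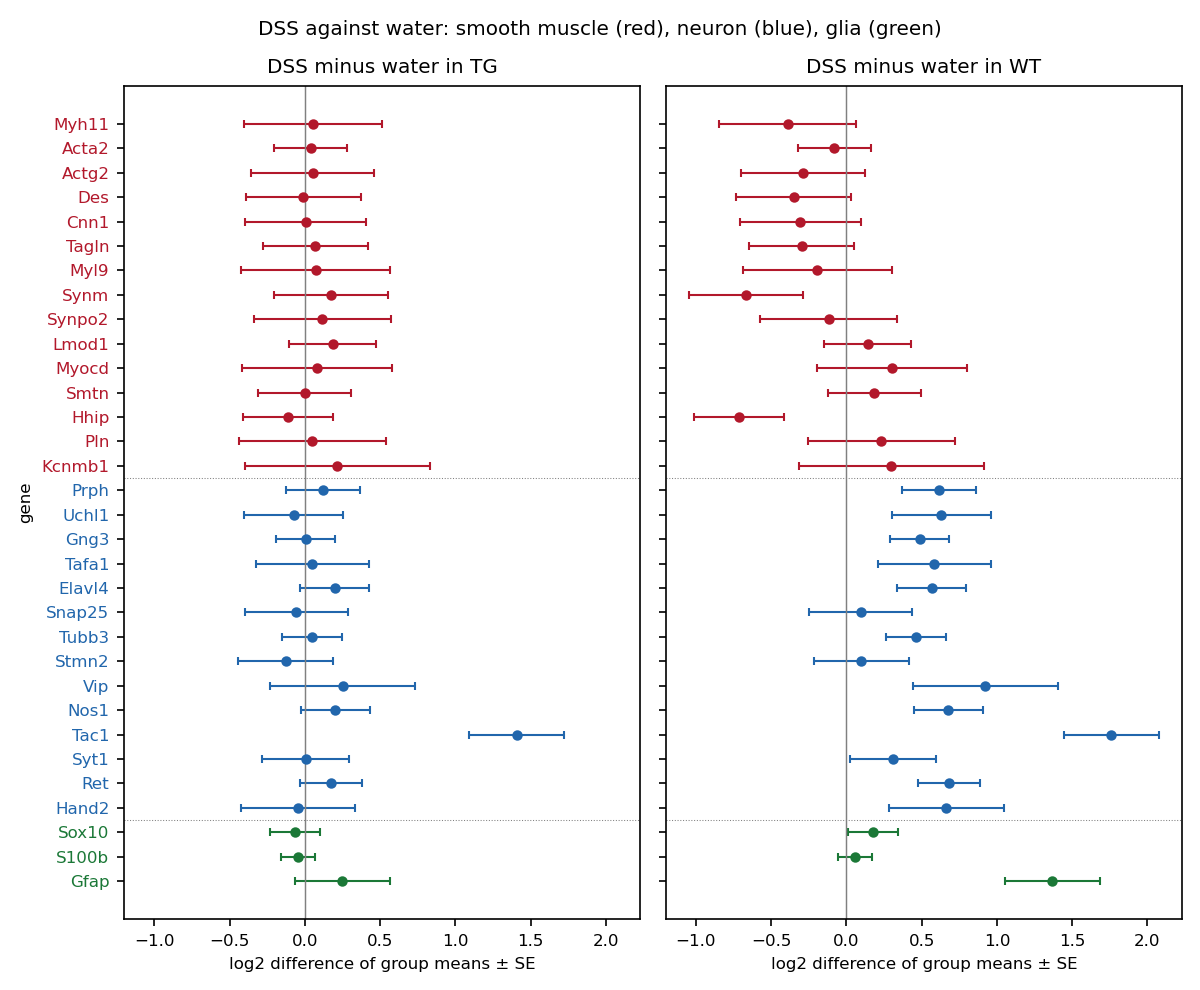
Difference of group means, DSS minus water, on the log2 scale (x axis) for each gene (rows), with the SE from the limma fit as bars and 3 arrays per group, in TG on the left and WT on the right. In TG all but Tac1, at 1.41, lie between -0.13 and 0.25. In WT all 17 neuron and glia genes lie above 0, where 40.6% of all genes do. There 10 of 15 muscle genes lie below 0, where 59.4% of all genes do.

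Under DSS the genotypes were compared next. Neuron and glia genes had a median of -0.82 in TG minus WT, with 17 of 17 below 0, and smooth muscle genes one of -0.17, with 13 of 15 below 0. Over all genes 42.1% were below 0 and the median was 0.04. No member passed, and 0.0401% of all genes did, while 11 members and 15.9% of all genes had an unadjusted p under 0.05. Without overlap 8 of the 14 neuronal genes were lower in TG, where 4.9% of all genes were, and 0 glia or muscle genes.

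Ret averaged -0.11 ± 0.31 in TG DSS and 0.77 ± 0.38 in WT DSS (SD, n = 3 arrays each), a difference of -0.88 ± 0.21 (SE; limma adjusted p = 0.127). Prph averaged -0.22 ± 0.29 in TG DSS and 0.79 ± 0.52 in WT DSS, a difference of -1.01 ± 0.25 (limma adjusted p = 0.132). Nos1 differed by -0.88 ± 0.23, Gng3 by -0.73 ± 0.20, Uchl1 by -1.08 ± 0.33 and Gfap by -1.05 ± 0.32 (limma adjusted p = 0.138, 0.143, 0.175 and 0.175). Vip had the largest difference of the members, -1.27 ± 0.48, and its groups overlapped (limma adjusted p = 0.25). The muscle genes ranged from Pln at -0.87 ± 0.49 to Hhip at 0.32 ± 0.30 (limma adjusted p = 0.392 and 0.624).

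These calls moved with the WT DSS array left out. Without WT DSS replicate 1, 8 members passed, all lower in TG, namely Pln, Prph, Uchl1, Gng3, Elavl4, Snap25, Nos1 and Gfap, and 1166 genes passed in all. Without replicate 3 Ret passed alone among the members, of 164 genes, and without replicate 2 none did, of 16. The smooth muscle median was -0.76, 0.29 and -0.05 without WT DSS replicates 1, 2 and 3, and the neuron and glia median was -1.03, -0.51 and -0.89.

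On water the transgene was compared with the wild type, a comparison that shares no array with the one under DSS. All 15 smooth muscle genes read lower in TG, with a median of -0.44, and 15 of 17 neuron and glia genes, with a median of -0.37. Over all genes 45.3% were below 0 and the median was 0.01. No gene passed (0%), and 61 of 19935 (0.306%) had an unadjusted p under 0.05, of which 0 were members. Without overlap 18 of 32 members were lower in TG, where 3.05% of all genes were, and 0 were higher, where 1.93% were. The members varied together over the arrays, so these 18 are not independent.

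Of the muscle genes, 8 were lower without overlap. Synm read -0.20, -0.70 and 0.15 in TG water and 0.33, 0.31 and 0.49 in WT water, a difference of -0.63 ± 0.38 (SE, n = 3 arrays per group). Lmod1 read -0.25, -0.70 and -0.04 in TG water and 0.20, 0.04 and 0.32 in WT water, a difference of -0.51 ± 0.29. Myh11 differed by -0.54 ± 0.46 and Pln by -0.69 ± 0.49. For each of these 4 genes the limma adjusted p was 1.

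Of the neuron and glia genes, 10 were lower without overlap, all of them neuronal. Prph read -0.09, -0.50 and -0.43 in TG water and 0.09, 0.37 and 0.05 in WT water, a difference of -0.51 ± 0.25. Stmn2 differed by -0.59 ± 0.32, Vip by -0.60 ± 0.48, Nos1 by -0.40 ± 0.23 and Syt1 by -0.43 ± 0.29 (limma adjusted p = 1 for each). The genes above 0 were Tubb3 at 0.0046 and Gfap at 0.07, and Sox10 and S100b were at -0.02 and -0.08. The 10 other genes listed for glia were all below 0 in TG minus WT on water, where 45.3% of all genes were, with a median of -0.15. Of these 10 genes 2 were lower without overlap, where 3.05% of all genes were. The largest difference of the 10 was that of Cdh19, a cadherin of glia and Schwann cells, at -0.91 ± 0.35 (limma adjusted p = 1).

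Among the water arrays TG replicate 2 was the lowest for muscle, with a median of -0.70 and all 15 genes below 0. Replicates 1 and 3 had muscle medians of -0.16 and 0.02, against 0.23, 0.00 and 0.25 in WT water replicates 1 to 3. The neuron and glia medians were -0.11, -0.37 and -0.18 in TG water and 0.00, 0.16 and 0.02 in WT water. Without TG water replicate 2 the difference in medians was -0.25 for muscle and -0.28 for neurons and glia. When the 6 water arrays were fitted alone, 17 of 32 members and 423 of 19935 genes had an unadjusted p under 0.05, with 0 genes passing (limma). With a weight for each array 17 members passed, of 1971 genes.

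**Figure D4:**
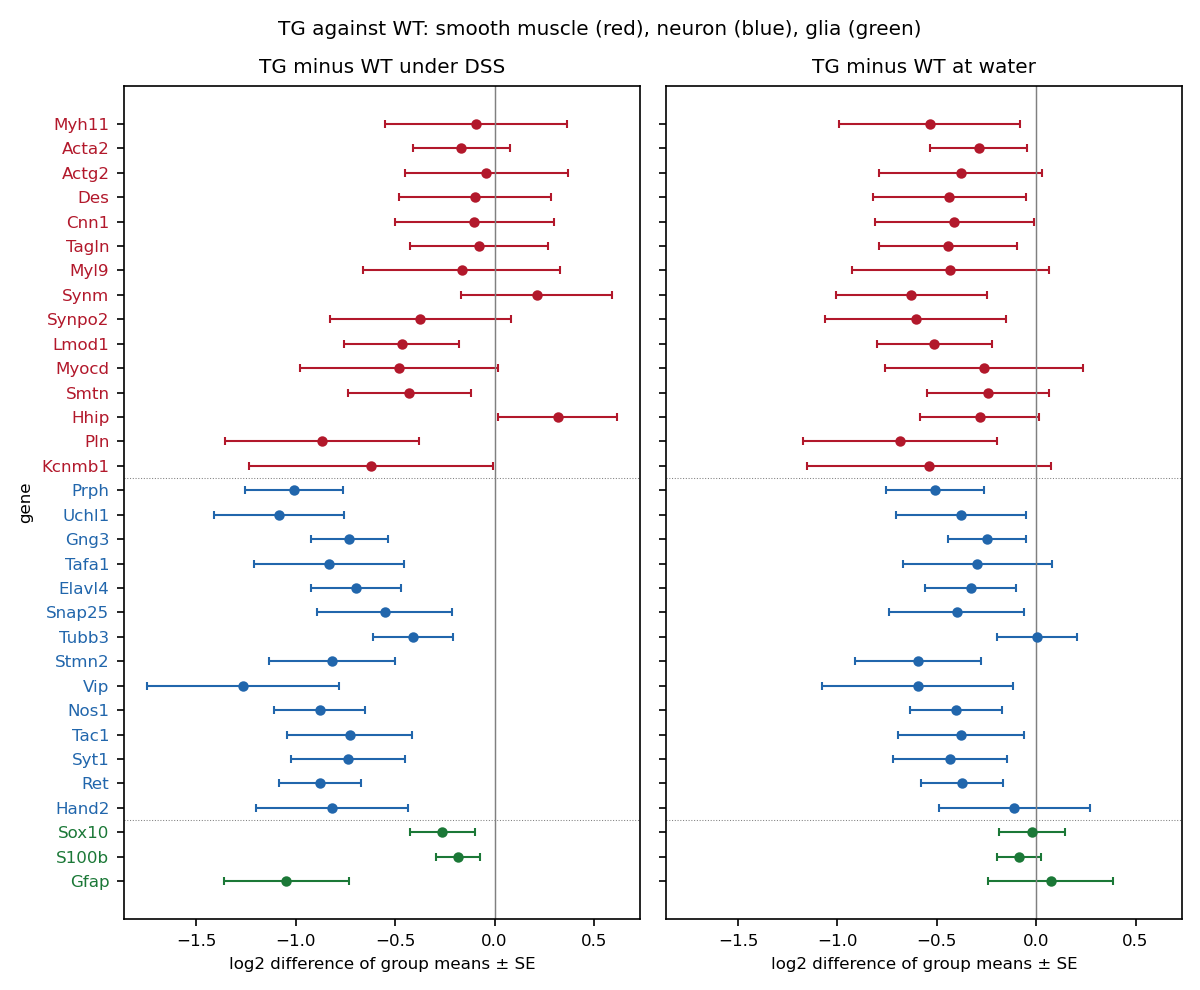
Difference of group means, TG minus WT, on the log2 scale (x axis) for each gene (rows), with the SE from the limma fit as bars and 3 arrays per group, under DSS on the left and on water on the right. Under DSS the neuron and glia genes have a median of -0.82 and muscle genes one of -0.17, and on water the medians are -0.37 and -0.44.

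The interaction sets the DSS difference of TG mice against that of WT mice, TG minus WT, and had opposite medians in the classes. It was 0.27 for smooth muscle, with 11 of 15 genes above 0, where 52.2% of all genes were. It was -0.48 for neurons and glia, with 17 of 17 below 0, where 47.8% of all genes were, and the median of all genes was 0.01. No gene passed (0%), and 1167 genes (5.85%) had an unadjusted p under 0.05, of which 1 was a member. That member was Gfap, at -1.12 ± 0.45 (limma adjusted p = 0.827). Synm had the largest muscle value, 0.84 ± 0.54, and Tac1 stood at -0.35 ± 0.45 (limma adjusted p = 0.852 and 0.893). The muscle median was -0.24 without WT DSS replicate 1, so its direction rested on that array, and 0.04 without TG water replicate 2.

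Other genes of the same cells were read beside the members. Of 26 measured contractile genes outside the members, 0 passed in any of the 5 comparisons. Their median in TG minus WT on water was -0.37, with 26 of 26 below 0, where 45.3% of all genes were. In WT, DSS minus water, it was 0.09, with 15 above 0 and 11 below, where 40.6% of all genes were above 0. Lower without overlap in WT DSS were 2 of the 26, where 10.7% of all genes were. On WT DSS replicate 1 the 26 genes had a median of -0.39, less low than the -0.96 of the muscle members. Casq2, a calcium-storing protein of the sarcoplasmic reticulum, was lower in WT DSS without overlap, at -0.97, -0.30 and -0.67 against 0.31, 0.11 and 0.63 in WT water, a difference of -0.996 ± 0.183 (SE, limma adjusted p = 0.0631). Kcnma1, the pore of the channel that Kcnmb1 tunes, read -0.78, -0.93 and -0.94 in TG water and 0.38, -0.03 and 0.20 in WT water, a difference of -1.06 ± 0.51 (limma adjusted p = 1).

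Of 20 further enteric neuron genes 0 passed in any comparison, and their medians were 0.15 for DSS minus water in WT and -0.43 for TG minus WT under DSS. In the first, 14 were above 0 and 6 below, from -0.53 to 2.11, where 40.6% of all genes were above 0. In the second, 18 were below 0 and 2 above, where 42.1% of all genes were below 0. Penk, the precursor of enkephalins, read 0.84, -0.15 and -0.59 in TG DSS and 1.78, 2.82 and 1.59 in WT DSS. Its WT water readings were -0.23, 0.05 and 0.06, and DSS minus water in WT was 2.11 ± 0.39 (limma adjusted p = 0.067). Gal, the neuropeptide galanin, read 0.25, -0.09 and -0.29 in TG DSS and 0.81, 2.05 and 2.68 in WT DSS. Its DSS difference in WT was 1.79 ± 0.37 (limma adjusted p = 0.0765). Both peptides are also made outside neurons. Slc18a3, the vesicular acetylcholine transporter, differed by -0.82 ± 0.21 in TG minus WT under DSS (limma adjusted p = 0.134). Of 10 further genes listed for glia 0 passed. In TG minus WT under DSS their median was -0.31, with 8 below 0 and 2 above, from -1.35 to 0.60. In WT, DSS minus water, it was 0.05, with 7 above 0 and 3 below. Among them Gfra2, a receptor for neurturin, read -0.04, -0.03 and -0.87 in TG DSS and 0.43, 2.64 and 0.03 in WT DSS, a difference of -1.35 ± 0.56 (limma adjusted p = 0.289).

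Markers of other cells moved on the same arrays. On WT DSS replicates 1 to 3 the leukocyte genes had medians of 1.74, 2.80 and 0.53, fibroblast genes 0.92, 2.19 and -0.41, endothelial genes 0.70, 2.99 and -0.29, and epithelial genes -0.05, -2.04 and 0.02. WT DSS replicate 2, high in muscle, neuron, fibroblast and endothelial genes, was thus low in epithelial genes, and their part in the muscle and neuron readings was not tested. On replicate 1 fibroblast and endothelial genes were above 0 while muscle was at -0.96. Interstitial cells of Cajal, the pacemaker cells of gut muscle, had marker medians of -0.11, 0.96 and 0.79. Their 6 markers were split, with 5 above 0 and 1 below on replicate 2, from -1.68 to 3.58. The same counts held on replicate 3, from -1.63 to 1.01. Mesothelial genes, which mark the outer face of the bowel, had medians of -0.10, -0.28 and 0.62 on the same arrays, and so were not high on replicate 2.

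Several neuronal members are also made by enteroendocrine cells of the epithelium, among them Uchl1, Snap25, Syt1 and Tac1. The 10 enteroendocrine genes had medians of -0.07, 0.03 and 0.96 on WT DSS replicates 1 to 3, against 0.16, 1.13 and 0.50 for the 14 neuronal members. The enteroendocrine genes were mixed, from -3.75 to 2.74 on replicate 3, so their median does not speak for each gene. The part of enteroendocrine cells in the neuronal readings was not tested. Skeletal muscle genes, which would mark the anal sphincter, had medians between -0.08 and 0.28 on the 12 arrays, and squamous genes of the anal canal between -0.18 and 0.16. In TG minus WT on water the fibroblast genes had a median of -0.31, leukocyte genes -0.11, and endothelial, enteroendocrine and epithelial genes 0.03, 0.09 and 0.02.

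**Figure D5:**
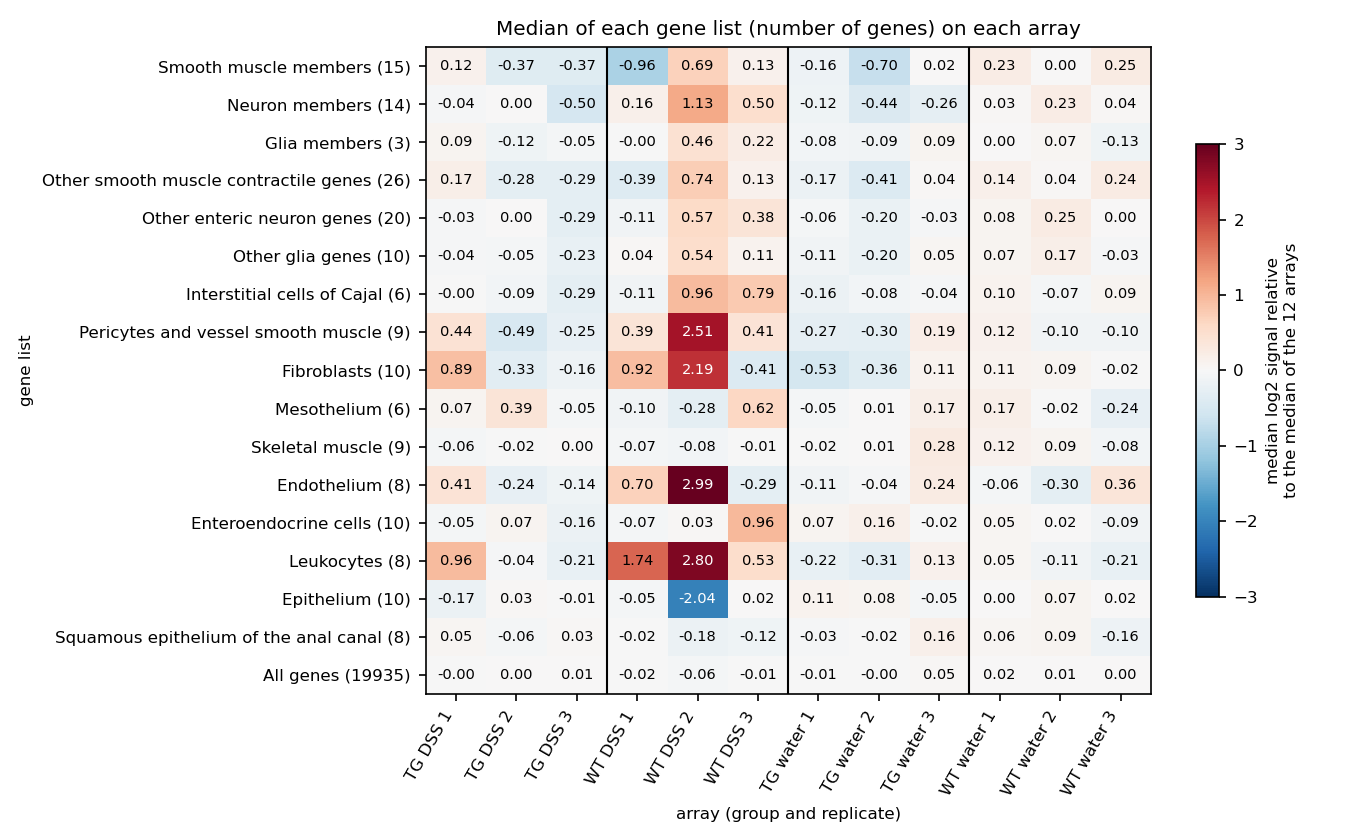
Median log2 signal of each gene list (rows, with the number of genes) on each array (columns, by group and replicate), with 0 as each gene's median across arrays. WT DSS replicate 2 has the highest medians for endothelium, at 2.99, and leukocytes, at 2.80, and the lowest for epithelium, at -2.04, while smooth muscle members read -0.96 on WT DSS replicate 1.

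The spread within groups gave the last view of the members. The SD over 3 arrays was highest in WT DSS for 28 of 32 members, against 51.9% of all genes. Its median over the muscle genes was 0.31 in TG DSS, 0.92 in WT DSS, 0.38 in TG water and 0.14 in WT water, and over the neuronal genes 0.32, 0.52, 0.20 and 0.16. Because the fit pooled the groups, the WT DSS spread also set the SE of the comparisons that leave those arrays out. Kcnmb1 had the largest SD, 1.44 in WT DSS.

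The muscle genes varied together within groups. As a description, deviations from the group means over the 12 arrays gave a median pairwise Pearson r of 0.92 over 105 pairs of muscle genes, 0.67 over 91 pairs of neuronal genes and 0.68 over 210 pairs of a muscle with a neuronal gene. Leaving out WT DSS, the 9 other arrays gave 0.89, 0.57 and 0.34. The pairs share arrays and RNA preparations, so these values show that genes moved on the same arrays and no more. Hhip was the muscle gene least like its class, with a median r of 0.43, and it was 0.46 on the 9 arrays. Of the neuronal genes Tac1 had the lowest median r with the other neuron and glia genes over the 12 arrays, 0.36, while over the 9 arrays Tafa1 did, with 0.0089, and Tac1 had 0.30.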

How the data were processed

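RNA from 12 samples in 4 groups of 3 was measured on Affymetrix arrays. The authors made the values with RMA in Affymetrix Expression Console, per the submitters' processing notes, which name no version. The deposited table has 1 value per probe set (28815) and array, read here as log2, the scale RMA returns, since no label states the log base. Every probe set had a median of 0 across arrays (largest deviation 5e-07), so the deposited log2 values are centred and no filter on dim probe sets could be applied. Probe sets with exactly 1 symbol (21780) were averaged per gene, giving 19935 genes. Those with several symbols (1605) or none (5430) were left out.

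Group means were fitted with limma 3.58.1 (R 4.3.3; lmFit and eBayes, 12 arrays, 8 residual degrees of freedom), and p-values were adjusted by Benjamini-Hochberg over all genes, with 0.05 as the threshold. Class medians were not tested. The code was tested on simulated data. The members and lists were chosen with earlier results of these data known. All members could be named, and from each of 13 other lists up to 4 genes per comparison with the smallest p. Same-numbered arrays did not deviate together (1 of 18 pairs had r over 0.1), so numbers were not used as pairs. The alternatives were fits on 2 groups alone, a replicate block, other probe set rules, centred arrays, eBayes options, weights, a stricter threshold and arrays left out. Tables and figures were made in Python 3.11.15 with pandas 2.3.3 and matplotlib 3.10.9. The number of arrays limits the precision.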

Additional observations from a re-analysis of the deposited data

How the results depend on the processing

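Of 426 alternative values under 22 settings, 355 stayed within 1.5 times the reported count or 1 SD of the reported median. Many of the medians could not move. Fits that changed only the spread or the probe set rule, or left out an array of another group, kept the same median by construction. The SD of the array medians within groups was 0.49 for muscle, so a muscle median on water of -0.77 against -0.44 counted as unmoved. The 355 is thus no measure of stability. For TG minus WT under DSS (8 genes passing) and DSS minus water in WT (34), 0 and 0 genes passed in fits of 2 groups alone, 0 and 0 with the replicate block, 0 and 0 with weights per group, 0 and 0 at an adjusted p under 0.01, and 0 and 2 with a trended, robust eBayes. At an unadjusted p under 0.05 the fits of 2 groups had 1879 and 1545 genes and the block 2826 and 2748. Centring the arrays left 4 genes in TG minus WT under DSS, and using every probe set gave 105 and 1 member in DSS minus water in WT. With weights per array, 1971 genes and 17 members passed in TG minus WT on water, 273 genes in TG minus WT under DSS, 4 in DSS minus water in TG, 754 and 2 members in DSS minus water in WT, and 12 in the interaction. The muscle medians were then 0.38 in TG minus WT under DSS, -0.92 in DSS minus water in WT and 1.17 in the interaction, and the neuron and glia medians of the last 2 were 0.27 and -0.19. Without WT DSS replicates 2 and 3 together, 56 genes passed in TG minus WT under DSS (muscle median 0.77, neuron and glia -0.28), 158 genes and 2 members in DSS minus water in WT (-1.15 and 0.15), and 22 genes in the interaction (1.22 and -0.027), where the lone array is assumed to vary like the other groups. Leaving out 1 array at a time gave 0 to 1166 genes, 0 to 8 members, muscle medians of -0.76 to 0.29 and neuron and glia medians of -1.03 to -0.51 in TG minus WT under DSS. It gave 0 to 919 genes, 0 to 3 members, -0.69 to 0.29 and 0.23 to 0.77 in DSS minus water in WT, and 0 to 239 genes, -0.24 to 0.72 and -0.59 to -0.14 in the interaction. In TG minus WT on water the muscle median ranged from -0.59 to -0.25 and the neuron and glia median from -0.44 to -0.26. In DSS minus water in TG they ranged from -0.14 to 0.20 and from 0.01 to 0.18. The cause of these shifts was not tested. A filter on dim probe sets was not run, since centred values hold no level.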
